A study of Mus musculus with 6 samples.

Results

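The mitochondrial genome codes for 7 subunits of complex I, and their transcripts were followed here in embryonic stem cells (mES) and embryonic fibroblasts (mEF) of the mouse, labeled as single cells in drops. The members are mt-Nd1, mt-Nd2, mt-Nd3, mt-Nd4l, mt-Nd4, mt-Nd5 and mt-Nd6, which are 7 of the 13 coding genes and of the 37 genes annotated on this genome. A record, which is the alignment of a sequenced read at a position, was counted to a member when its 5' end lay in that gene on its coding strand. On the plus strand of the mitochondrial chromosome the windows run from 2751 to 3707 for mt-Nd1, 3914 to 4951 for mt-Nd2, 9459 to 9806 for mt-Nd3, 9877 to 10166 for mt-Nd4l, 10167 to 11544 for mt-Nd4 and 11742 to 13551 for mt-Nd5, and mt-Nd6 lies on the minus strand from 13552 to 14070. Each member is a single exon without introns. This rule uses no measured level. It found 3487 of the 1209744 deposited records, of which 1613 are from mES and 1874 from mEF. By comparison, the other 6 mitochondrial coding genes held 13530 records and the mitochondrial ribosomal RNAs 15396.

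The mES are line V6.5 grown with the cytokine LIF, and the mEF are a commercial fibroblast culture (GlobalStem GSC-6002) grown in that medium with LIF left out. Each of the 6 libraries is labeled with both mES and mEF as its source, with no genetic change and no further agent given. In every library the contents of a cell received 1 of 1152 barcodes, which primed reverse transcription from the poly(A) tail, and an adapter was joined to the other end of the cDNA before PCR. The authors assigned barcodes to a cell type and pooled the reads, so each cell type is 1 pool without a labeled replicate, and differences are given without a test. The mES pool held 750739 records and the mEF pool 459005. Since the read names carry no barcode, cells that share a barcode, drops with more than 1 cell and stray RNA between drops could not be found or removed here. The read names show 3 sequencing runs, numbered by their records. Run 3 stood apart, as 8.84% of its mES records and 5.47% of its mEF records were mitochondrial, against 1.61% and 2.80% in run 1, and ribosomal RNA made up 9401 of these 9621 mES records and 1509 of these 1623 mEF records of run 3. Its spans are longer, commonly 45 nt against 35 nt, and it alone lists records again as second copies. Whether the cells express the defining markers of mES and mEF was not analysed here, since no nuclear annotation of the build of the files was used.

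Complex I, the NADH:ubiquinone oxidoreductase, is the entry point of the respiratory chain. It takes electrons from NADH, passes them to ubiquinone and pumps protons across the inner mitochondrial membrane. Its subunits that bind NADH and carry the iron-sulfur clusters are coded in the nucleus, while the mitochondrial members form the core of the arm that lies in the membrane. All but mt-Nd6 are coded on the same strand and are cut out of a long shared transcript, often at the transfer RNAs that lie between them. The mRNA of mt-Nd4l is shared with mt-Nd4, whose reading frames overlap, and mt-Nd6 alone is coded on the other strand. Most mitochondrial mRNAs carry short poly(A) tails, which in some of them complete the stop codon.

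The 3' ends of the 4 members with the most records show where these reads begin. Each sequence starts 10 nt before the 5' end with the most records in both cell types together and runs to the last base of the transcript, read from GENCODE M21 (build GRCm38) on the plus strand. Capitals mark the 35 bases that an alignment from this 5' end covers.
mt-Nd1: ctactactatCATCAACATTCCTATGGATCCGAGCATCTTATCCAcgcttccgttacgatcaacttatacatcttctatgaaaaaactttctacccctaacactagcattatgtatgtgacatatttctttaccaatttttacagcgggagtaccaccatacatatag
mt-Nd2: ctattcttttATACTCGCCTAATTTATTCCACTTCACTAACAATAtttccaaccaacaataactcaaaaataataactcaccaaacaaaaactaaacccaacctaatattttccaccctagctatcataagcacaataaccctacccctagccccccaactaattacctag
mt-Nd3: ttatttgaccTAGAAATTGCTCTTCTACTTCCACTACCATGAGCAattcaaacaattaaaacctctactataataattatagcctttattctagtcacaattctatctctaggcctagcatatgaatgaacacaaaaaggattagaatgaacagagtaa
mt-Nd4: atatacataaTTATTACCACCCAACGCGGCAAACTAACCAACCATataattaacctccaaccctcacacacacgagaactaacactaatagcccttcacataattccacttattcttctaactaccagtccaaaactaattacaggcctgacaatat
The capitals begin 157 nt before the last base in mt-Nd1, 160 nt in mt-Nd2, 148 nt in mt-Nd3 and 146 nt in mt-Nd4. The mt-Nd4 transcript ends in an incomplete stop codon, with 1 base left over after its triplets, and the other 6 end in a whole one. The 6 members on the plus strand are rich in A, from 30.0% of the bases in mt-Nd4l to 36.9% in mt-Nd2, and poor in G. In mt-Nd6 the bases are unlike those of the others, with 22.2% A and 28.1% G. No member holds a run of more than 8 A, which was found in mt-Nd2, and the longest in mt-Nd1 was 6.

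Taken as a sum, the members were higher in mEF. Levels are in CPM, records per 1000000 records of the pool or run, with exact 95% Poisson intervals. The sum was 2149 CPM in mES (2045 to 2256) and 4083 CPM in mEF (3900.0 to 4272), or 1.90-fold higher in mEF (exact interval 1.78 to 2.03). It was 2389.8 against 4402 CPM in run 1, 2576 against 4040.3 CPM in run 2, and 377 against 1112 CPM in run 3. The mEF sum was thus the higher in each run, by 1.84-fold (1.70 to 2.00), 1.57-fold (1.39 to 1.77) and 2.95-fold (1.81 to 4.78), though run 3 held only 41 mES and 33 mEF records of all members. Run 1 held nearly all 5' positions of run 2, as given further on, so these runs cannot be read as separate samples. The intervals cover counting error only. Copies made by PCR are not independent molecules, and the 1613 mES records lie at 98 distinct 5' positions and the 1874 mEF records at 78. In pooled cells a higher share of RNA and more cells rich in it cannot be told apart.

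In records, loci that differ by more than the complex I sum are common between the pools. Joined into loci by their 5' ends, 4321 regions held at least 50 records over both pools. Of these, 30.2% were more than 4-fold higher in mES and 24.6% more than 4-fold higher in mEF, and for 2-fold the shares were 39.3% and 35.0%. These shares rest on records copied by PCR. Among the 132 loci with at least 50 distinct positions, 1 (0.758%) and 13 (9.85%) passed 4-fold toward mES and mEF in distinct positions. That is a smaller set of loci with many positions, so its shares are not a recount of the 4321. Among the members, 4 reached 50 records, namely mt-Nd1, mt-Nd2, mt-Nd3 and mt-Nd4. None of the 4 passed 4-fold, and mt-Nd3 and mt-Nd4 passed 2-fold toward mEF. Their median log2 ratio of mES to mEF was -0.99, and that over all loci, with 3 counts in place of 0, was 0.10. These 4 members have records in both pools, and over the loci with records in both the median was -0.23. The remaining 3 members stayed under the minimum and are described by their records.

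mt-Nd1 was the member with the most records in both cell types. Its product lies in the membrane arm next to the site where ubiquinone binds. It was at 1195, 1318 and 36.8 CPM in mES and 1864, 1736 and 708 CPM in mEF, in runs 1, 2 and 3. The mEF value is the higher in every run, while in both cell types run 3 lies far under the other runs. Over all runs it was 1060.3 CPM in mES (988 to 1137) and 1752 CPM in mEF (1633 to 1877), or 1.65-fold higher in mEF (1.50 to 1.82). Run 3 sets part of this size, with 4 mES and 21 mEF records, and over runs 1 and 2 alone the difference was 1.48-fold (1.34 to 1.63). Distinct positions, 48 in mES and 32 in mEF, gave 1.42-fold, and without run 3 they gave 1.26-fold. Both have intervals that include no difference. All 796 mES and 804 mEF records had the highest mapping score. This score is written by the aligner, takes 4 values, and is given at its highest to reads with a single placement.

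mt-Nd4, whose product is one of the large proton-pumping subunits, followed in records. It was at 800.4, 831 and 55.1 CPM in mES and 1708, 1529 and 236 CPM in mEF, in runs 1, 2 and 3. The mEF value is the higher in every run, by 2.13-fold, 1.84-fold and 4.28-fold. Over all runs it was 701 CPM in mES (642 to 763) and 1559.9 CPM in mEF (1448 to 1678), which is 2.23-fold (1.99 to 2.50), and 2.04-fold (1.82 to 2.29) over runs 1 and 2. All 716 mEF records and 523 of 526 mES records had the highest score.

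mt-Nd3 was higher in mEF as well, with a ratio whose interval overlaps that of mt-Nd4. Its product is a small subunit near the junction of the membrane arm with the arm that takes up NADH. It was at 185, 246 and 0 CPM in mES and 479.7, 465 and 135 CPM in mEF, in runs 1, 2 and 3, where the last rests on 4 records. The mEF value is above mES in each run. Over all runs it was 174 CPM (146 to 207) and 453 CPM (394 to 519), or 2.60-fold higher in mEF (2.08 to 3.26). The size depended on what was counted, as distinct positions, 9 in mES and 8 in mEF, gave 1.90-fold, and without run 3 they gave 1.37-fold. Both have intervals that include no difference. In contrast to mt-Nd1 and mt-Nd4, none of its 131 mES and 208 mEF records had the highest score, so that its level cannot be told apart from that of the other place these reads were aligned to, given further on.

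mt-Nd2 codes for a further proton-pumping subunit. It was at 196, 172 and 110.3 CPM in mES and 347, 310.2 and 0 CPM in mEF, in runs 1, 2 and 3. Runs 1 and 2 have the higher value in mEF, while run 3 has 12 mES records, all at a single 5' position and of lower score, and no mEF record. Over all runs it was 177 CPM (148 to 210.0) and 314 CPM (265 to 369), or 1.77-fold higher in mEF (1.39 to 2.26). Reads with the highest score gave 1.61-fold (1.13 to 2.30) and reads with lower scores 1.93-fold (1.37 to 2.72), intervals that overlap. Distinct positions, 12 in mES and 10 in mEF, gave 1.78-fold with an interval that includes no difference.

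mt-Nd4l, mt-Nd5 and mt-Nd6 were sparse. mt-Nd4l, the smallest of the membrane subunits, had 9 mES records, in runs 1, 2 and 3 with 6, 2 and 1, and no mEF record. With 3 counts in place of 0 this is at least 1.83-fold higher in mES, and the exact interval of the ratio of 9 to 0 records begins at 1.21-fold. All 9 had a lower score, and 8 of them share a single 5' position. mt-Nd5, the largest subunit in the membrane and a proton pump, had 18 mES records and 2 mEF records, or 24.0 CPM (14.2 to 37.9) against 4.36 CPM (0.528 to 15.7). All 18 came from run 3, 12 of them share a single position and 6 are second copies. With second copies dropped the log2 ratio of mES to mEF was 1.91, with an interval that includes no difference (-0.25 to 5.12). Per distinct position of the pool, the 4 mES positions against 2 in mEF gave -0.10 (-2.90 to 3.37), so no direction can be read from them. mt-Nd6 had no record on its own strand in either cell type, where the exact intervals reach up to 4.91 CPM for the mES pool and 8.04 CPM for the mEF pool. The cell types could therefore not be compared for mt-Nd6. Whether depth or the priming from poly(A) tails sets this was not tested.

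**Figure D1:**
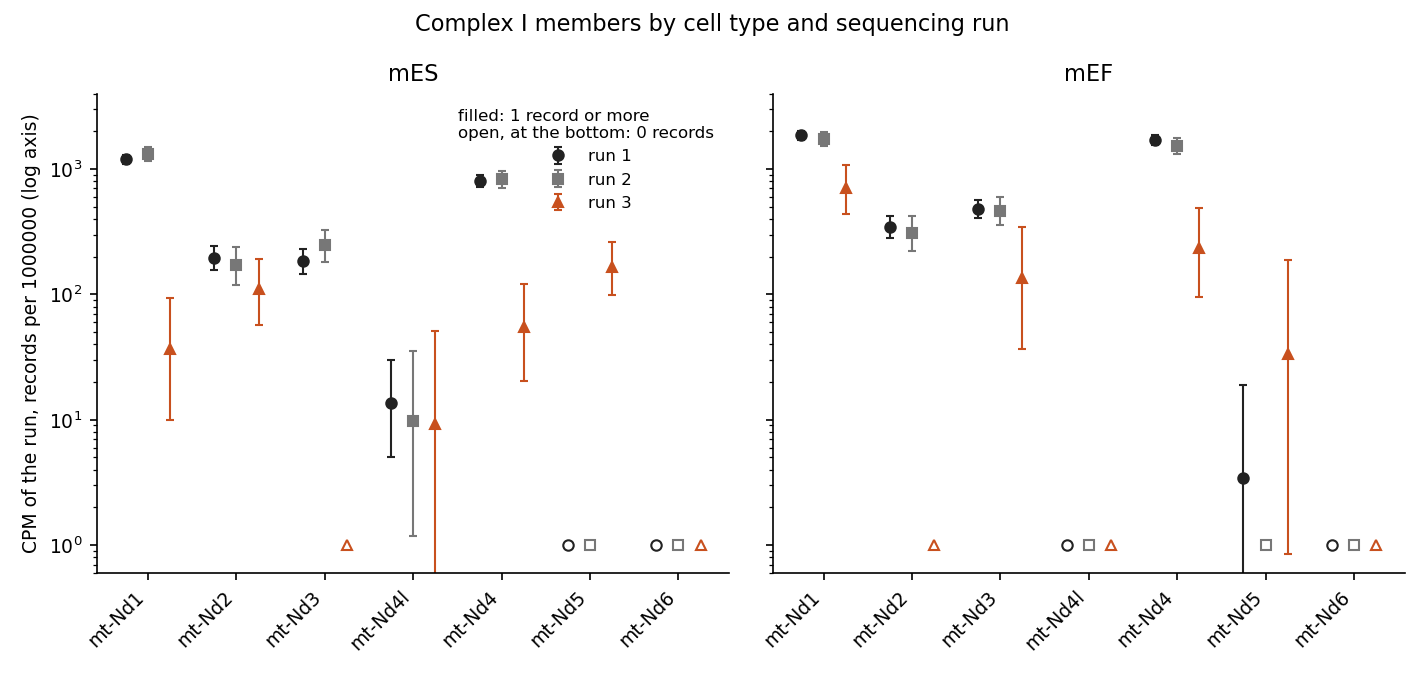
Level of each complex I member in CPM of the run, on a log axis, for mES (left) and mEF (right), with symbols for the 3 runs and bars for exact 95% Poisson intervals (bars that leave the axis reach lower values). Open symbols at the bottom mark 0 records. mt-Nd1 and mt-Nd4 stand highest in runs 1 and 2 of both cell types, run 3 lies lower for both, and the mES records of mt-Nd5 are all in run 3.

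Per length of the counted gene, the members fell in nearly the same order in both cell types. In mES the level was 1108 CPM per kb for mt-Nd1 (1032 to 1188), 508 for mt-Nd4 (466 to 554), 501 for mt-Nd3 (419 to 595), 171 for mt-Nd2 (143 to 202), 41.3 for mt-Nd4l (18.9 to 78.5) and 13.2 for mt-Nd5 (7.85 to 20.9). The neighbours mt-Nd4 and mt-Nd3 do not differ beyond counting error, and the intervals of mt-Nd4l and mt-Nd5 overlap too. In mEF the level was 1830.3 CPM per kb for mt-Nd1 (1706 to 1961), 1302 for mt-Nd3 (1131 to 1492), 1132 for mt-Nd4 (1051 to 1218), 302 for mt-Nd2 (254.9 to 356) and 2.41 for mt-Nd5 (0.292 to 8.70). Here mt-Nd3 and mt-Nd4 overlap as well. As most reads begin near the 3' end, a level per length lowers long members, and the order of the records alone is mt-Nd1, then mt-Nd4, in both cell types. The windows of mt-Nd4l and mt-Nd5 also leave out the 3' ends of their mRNAs, so their places in the order are not those of whole mRNAs.

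As a sum, the other mitochondrial coding genes were higher in mEF by more than complex I was. The exceptions among them were mt-Co1, at 1.72-fold, and mt-Atp8, with 14 mES records and none from mEF. Only 10.6% of the mES and 5.96% of the mEF records of mt-Co1 had the highest score. These put mEF at 0.96-fold of mES (0.79 to 1.18). The other coding genes code for 3 subunits of cytochrome oxidase, 2 of the ATP synthase and for cytochrome b. Their sum was 7098 CPM in mES (6909 to 7292) and 17867 CPM in mEF (17482 to 18258), or 2.52-fold (2.43 to 2.61). The members thus took 23.2% of the mitochondrial coding records in mES (exact binomial interval 22.3% to 24.2%) and 18.6% in mEF (17.8% to 19.4%). In run 1 these shares were 23.0% and 18.9%, and in run 2 they were 23.9% and 17.5%. Run 3 went the other way, with 20.4% (15.1% to 26.6%) of 201 records in mES and 31.7% (22.9% to 41.6%) of 104 in mEF, and there the intervals overlap. The share depended on the mapping score, as complex I made up 67.5% of the mES and 60.5% of the mEF coding records with the highest score, and 4.30% and 3.85% of those with lower scores.

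By the mean distance of its log2 ratio from that of the complex I sum over the 3 runs, mt-Co3 was the nearest gene, at 0.50, followed by mt-Co1 at 0.63 and mt-Atp6 at 0.87. This order turns on run 3 with its few records, and over runs 1 and 2 mt-Co1 was the nearest at 0.09, mt-Co3 was at 0.63 and mt-Atp6 at 1.23. Pooled over all runs, mt-Co1 was at 0.14, mt-Co3 at 0.58 and mt-Atp6 at 1.17. In mt-Co3 and mt-Atp6 no record had the highest score, and in mt-Co1 few had. With that score the log2 ratio of mt-Co1 was 0.05 (-0.24 to 0.35) over all runs, and that of complex I was -0.89. The nearness of mt-Co1 thus does not hold at the highest score. mt-Co3, a subunit of cytochrome oxidase, had log2 ratios of mES to mEF of -1.42, -1.37 and -1.33 in runs 1, 2 and 3, where complex I had -0.88, -0.65 and -1.56. mt-Co1, which carries the catalytic site of cytochrome oxidase, had -0.71, -0.66 and 0.16, so that run 3 does not share the direction. mt-Atp6, part of the proton channel of the ATP synthase, had -1.98, -2.01 and -1.42. No distance could be given for mt-Co2 and mt-Atp8, which had no mES or no mEF record in a run. The ribosomal RNAs as a sum were higher in mES, with 16637 CPM in mES and 6331 CPM in mEF, or 2.63-fold, where 86398 and 50841 CPM in run 3 stand beside 4930.1 and 3208 CPM in run 1. Over runs 1 and 2 the sum was 1.48-fold higher in mES (1.39 to 1.58), while mt-Rnr1 was at 0.98-fold (0.84 to 1.16), so that mt-Rnr2 alone kept the direction there. Since all levels are shares of the same pool, the part of the ribosomal RNA in the members' lower level in run 3 was not tested. Counted against the records outside the mitochondrial chromosome, the log2 ratio of the complex I sum was -0.93, as it was against all records.

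**Figure D2:**
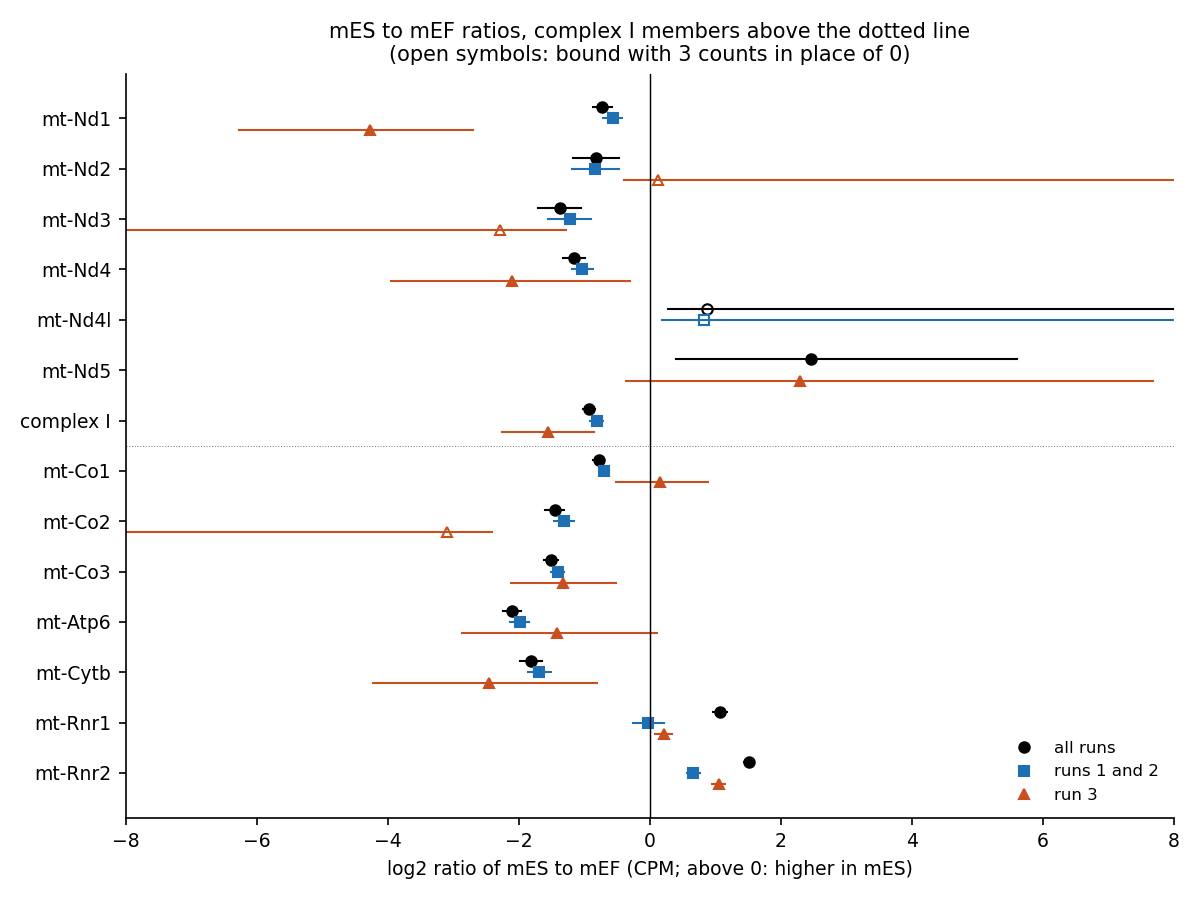
Log2 ratio of mES to mEF, in CPM, for the complex I members and their sum (above the dotted line) and for other mitochondrial genes (below), over all runs (circles), runs 1 and 2 (squares) and run 3 (triangles), with exact 95% intervals as lines. Open symbols are bounds with 3 counts in place of 0. mt-Nd1 to mt-Nd4 and the sum lie left of 0 over all runs and over runs 1 and 2, mt-Nd4l and mt-Nd5 lie right of it, and mt-Rnr1 and mt-Rnr2 have their all-run values right of it.

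The records of mt-Nd1, mt-Nd2 and mt-Nd4 began close to their 3' ends. The median 5' end was 152 nt from the last base of mt-Nd1 in mES and 157 nt in mEF, and 143 nt in both for mt-Nd4. For mt-Nd2 it was 160 nt in both, and for mt-Nd3 141 nt in mES and 148 nt in mEF. These medians are alike although the transcripts run from 348 nt in mt-Nd3 to 1378 nt in mt-Nd4. In the short mt-Nd3, however, they lie at 59.5% of the length in mES and 57.5% in mEF, not far past its middle. In all, 79.8% of the mES records (77.8% to 81.7%) and 92.5% of the mEF records (91.2% to 93.7%) of members longer than 300 nt began in the last 300 nt. The mES share was the lower for mt-Nd1, with 72.4% in mES and 90.9% in mEF. It was the lower for mt-Nd3 too, with 71.8% in mES (63.2% to 79.3%) and all records in mEF. At 348 nt, mt-Nd3 is hardly longer than the window. Without mt-Nd3 the shares of the members were 80.5% (78.4% to 82.5%) and 91.6% (90.2% to 92.9%). mt-Nd2 had the opposite order, with all of its mES records and 77.1% of its mEF records in the window, and mt-Nd4 had 90.7% and 95.5%. Counted over distinct positions, the shares of 76.0% in mES and 79.5% in mEF had overlapping intervals (66.3% to 84.2% and 68.8% to 87.8%).

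The mt-Nd5 records inside the reading frame lay farther away. None of the 18 mES and 2 mEF records was in its last 300 nt, and the nearest was 593 nt from its end. The window stops at the reading frame, while the mRNA runs on to mt-Cytb. With that stretch counted, as described at the end, 82.8% of 203 mES records (76.8% to 87.7%) and 88.7% of 159 mEF records (82.7% to 93.2%) began in the last 300 nt before mt-Cytb. mt-Rnr2, which is ribosomal, was spread along its length, with 25.5% of its mES and 33.6% of its mEF records in the last 300 nt. Over runs 1 and 2 these shares were 35.1% and 42.7%.

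The cell types shared some 5' positions. The mES records of all members lay at 98 positions and the mEF records at 78, of which 15 were the same, or 15.3% of the mES and 19.2% of the mEF positions. The share was 29.5% and 38.1% over the other mitochondrial coding genes, and 7.04% and 15.1% over all records outside the mitochondrial chromosome. For mt-Nd4, 7 positions were shared, for mt-Nd1 6, for mt-Nd2 2 and for mt-Nd3 none. The position with the most mt-Nd4 records, 11398 of the mitochondrial chromosome, held 59 mES and 132 mEF records, while the leading position of mt-Nd1, 3550, held 114 mEF records and none from mES. The positions next to it in rank, 3530 and 3562, held 24 mES records each and 57 and 50 mEF records. In mt-Nd3 the leading positions 9658, 9517 and 9654 held 52, 49 and 34 records, all from mEF. Position 9683 equals the last of these, with 34 records, all from mES. In mt-Nd2, 4791 held 27 mES and 58 mEF records, 4874 held 17 and 20, and 4768 held 22 from mES alone. In mt-Nd4 the next in rank were 11401 with 49 and 75 records and 11439 with 17 and 93.

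Runs 1 and 2 nearly repeat each other at this level. Run 1 held 73 of the 77 mES positions of run 2 and 56 of its 57 mEF positions. It held 2 of the 10 mES positions of run 3 and none of its 8 mEF positions. Runs 1 and 2 can therefore not be read as separate samples. Each position held 16.5 records in mES and 24.0 in mEF on average, and copies of 1 molecule cannot be told apart from several molecules there.

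**Figure D3:**
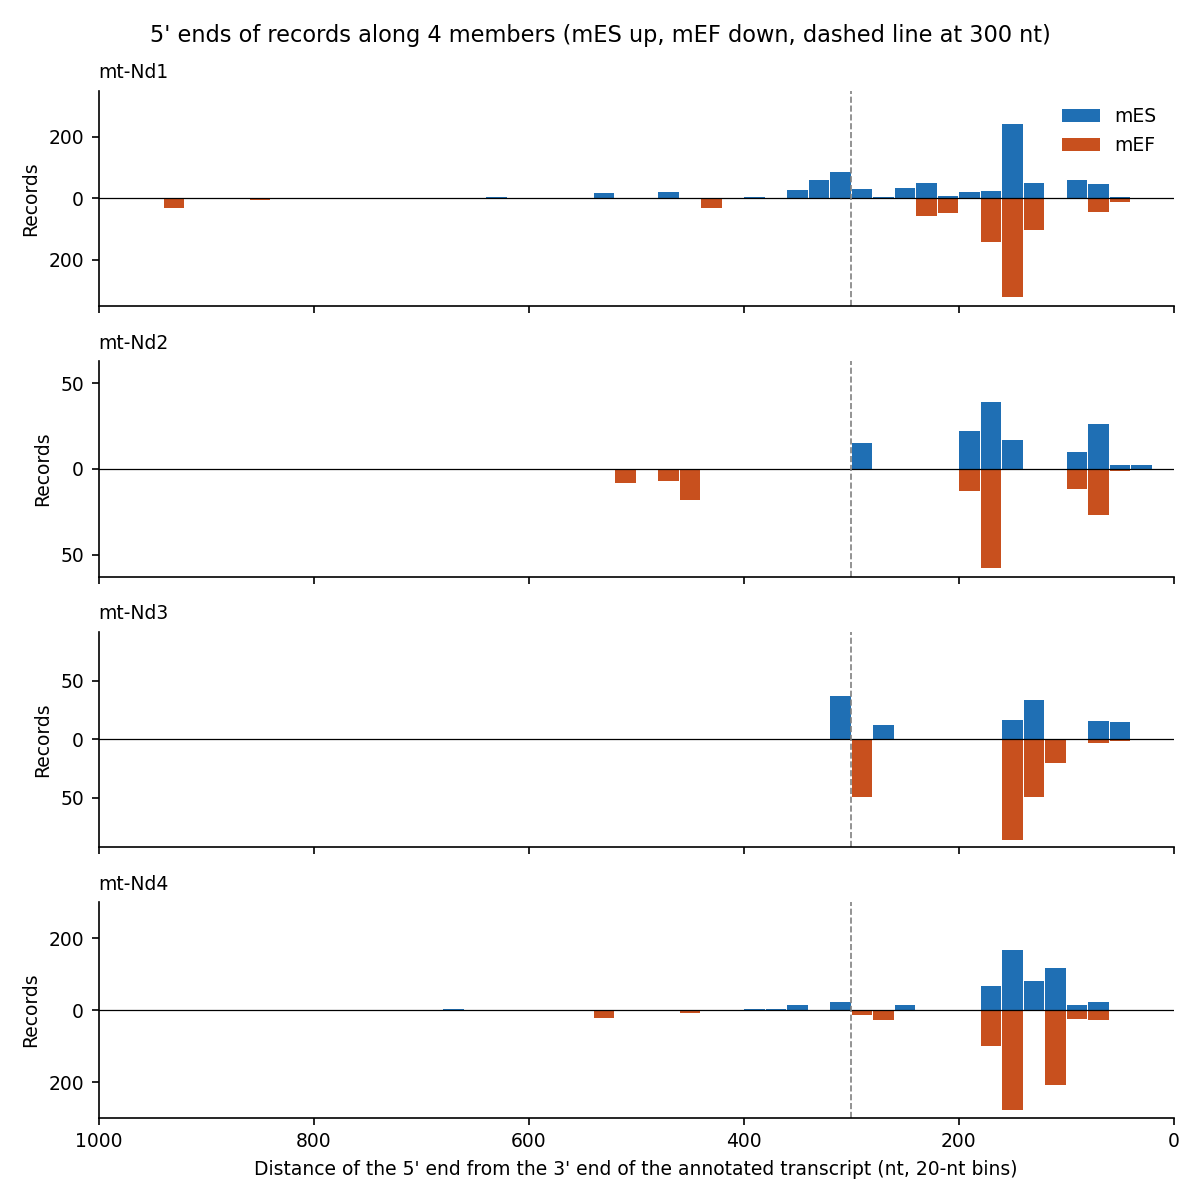
Records of mt-Nd1, mt-Nd2, mt-Nd3 and mt-Nd4 by the distance of their 5' end from the 3' end of the transcript in nt, which lies at the right, with mES drawn up and mEF drawn down and the dashed line at 300 nt. The median distance is between 141 and 160 nt for every member and cell type, and mES has records of mt-Nd1 left of the line where mEF has fewer.

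The members differ in how far their reads can be placed. Of all members' records, 87.0% in mES (85.3% to 88.6%) and 84.7% in mEF (83.0% to 86.3%) had the highest score. mt-Nd1 and mt-Nd4 were at or close to 100%, mt-Nd2 was at 50.4% in mES and 45.8% in mEF, and mt-Nd3 and mt-Nd4l were at 0. Records with the highest score put the sum 1.85-fold higher in mEF (1.72 to 1.99), and those with lower scores 2.25-fold (1.87 to 2.70).

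The reads with a lower score are listed again elsewhere in the genome, in the coordinates of the files, whose build is mm9 by the submitters' processing notes. All 131 mES and 208 mEF reads of mt-Nd3 have a further placement on the minus strand of chromosome 1, with 5' ends from 24619665 to 24619921 in mES and from 24619659 to 24619900 in mEF. The offset between both placements is the same for all of these reads. The 9 mt-Nd4l reads lie in the same stretch, at 24619371 and 24619465, and so do 3 mES reads of mt-Nd4 at 24618539. For these reads the mitochondrial and the nuclear placement cannot be told apart from the records. mt-Nd2 has its second place on the minus strand of chromosome 2, for all 66 mES reads of lower score, from 22445640 to 22445705, and all 78 mEF reads, from 22445641 to 22446047. Of these, 10 mES and 12 mEF reads have a further place on chromosome 5 near 60433962. A single mEF read of mt-Nd5 has one on chromosome 13.

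**Figure D4:**
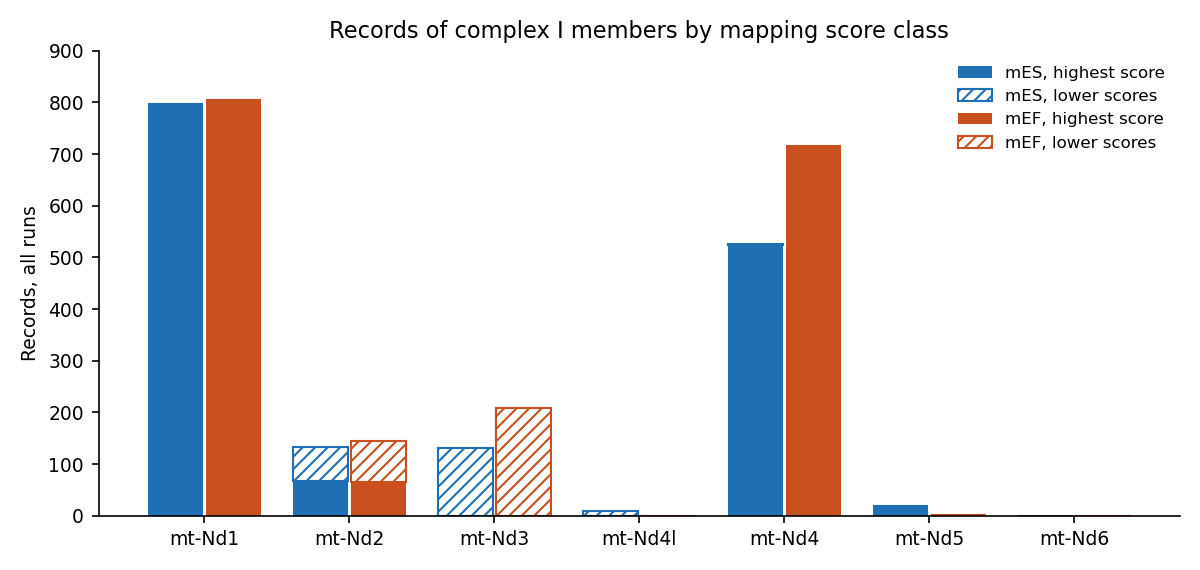
Records of each complex I member over all runs, by mapping score: solid bars for the highest score and hatched bars for lower scores, mES in blue and mEF in orange. mt-Nd1 and mt-Nd4 are solid almost throughout, mt-Nd2 is split with 67 of 133 mES and 66 of 144 mEF records at the highest score, and mt-Nd3 and mt-Nd4l are hatched throughout.

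The reads keep strand. In the 6 members coded on the plus strand, 3 mES records and no mEF record lay on the opposite strand, beside 1613 and 1874 on the coding strand. Inside mt-Nd6, however, 126 mES and 119 mEF records lay on the plus strand, opposite to its coding strand, or 168 CPM (140 to 199.8) and 259 CPM (215 to 310.2). All but 1 had the highest score. Between mt-Nd6 and mt-Cytb, opposite the transfer RNA mt-Te, a further 59 mES and 38 mEF records lay on the plus strand, none with the highest score. The mRNA of mt-Nd5 is known to run past its reading frame on the plus strand, opposite to mt-Nd6 and up to mt-Cytb. Counted with that stretch, mt-Nd5 had 203 records in mES and 159 in mEF, or 270.4 CPM (234 to 310.3) and 346 CPM (295 to 405), which is 1.28-fold higher in mEF and no longer higher in mES. The complex I sum then has a log2 ratio of -0.89. In contrast to the records inside the reading frame, most of these came from runs 1 and 2, with 117 and 65 in mES and 90 and 62 in mEF.

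**Figure D5:**
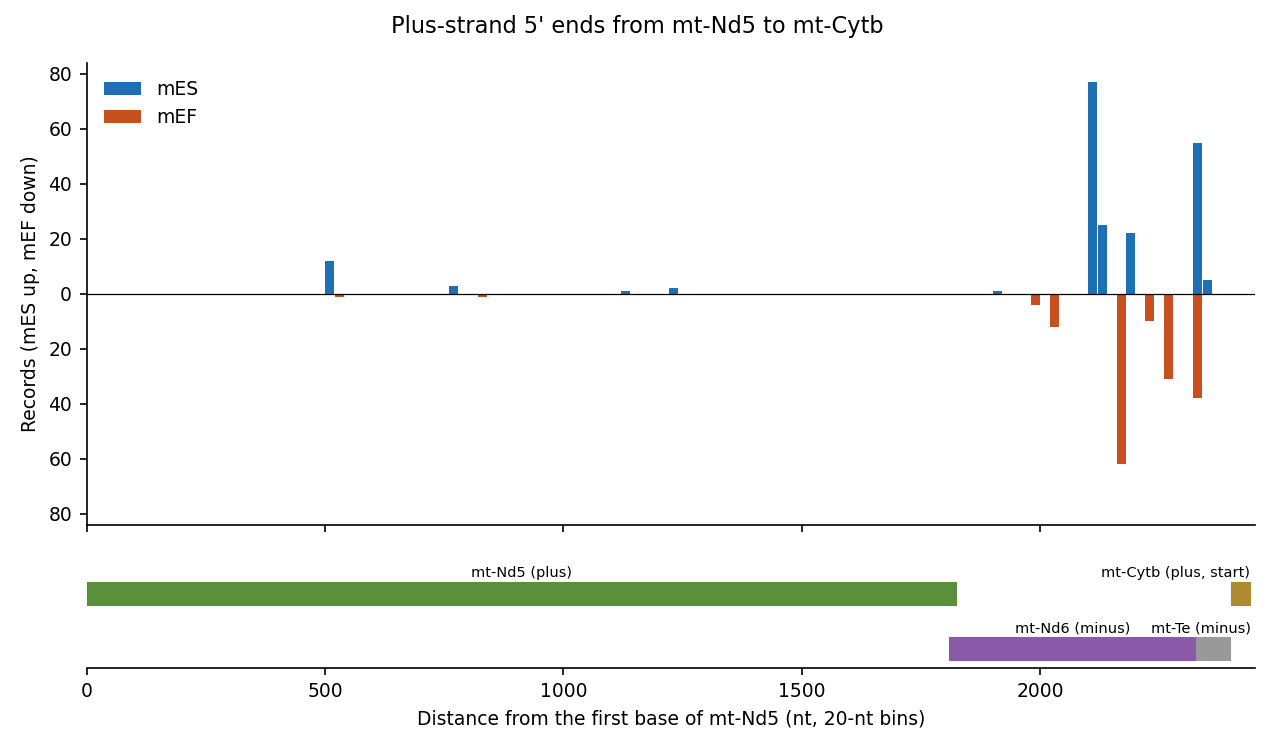
Records on the plus strand by the distance of their 5' end from the first base of mt-Nd5 in nt, mES drawn up and mEF down, above a map of the genes with their strand. Few records lie inside the mt-Nd5 reading frame (18 in mES, 2 in mEF), and most lie opposite mt-Nd6 (126 and 119) and mt-Te (59 and 38), before the start of mt-Cytb.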

How the data were processed

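Both pools were taken as the authors deposited them, lists of alignments with start, end, strand, read name and a mapping score set by the aligner. The submitters' processing notes name TopHat and mm9, without a version of the aligner. The score takes 4 values, and the deposited score was used only to set the highest apart. From these records the 5' end was taken, and each was counted to a mitochondrial gene of GENCODE M21. That annotation is of GRCm38. It was used for the mitochondrial chromosome alone, where the most frequent 5' end of mt-Rnr2, at 1094, is its annotated first base. Where annotated genes overlap, a member's window ends before the next gene. CPM are records per 1000000 records, scaled by all records of the pool or run. Exact 95% intervals are Poisson for levels, conditional binomial for ratios and Clopper-Pearson for shares, and cover counting error only. A count of 0 was replaced by 3 counts in a ratio. Loci joined 5' ends at most 500 nt apart on a strand. The ratio of mES to mEF was tested on simulated data with 4322 loci, where all 200 changed by 16-fold were recovered and 0 others were called. A size of 16-fold is far past the 4-fold used for the loci. Recovery of smaller differences, such as those of the members over all runs, was not tested.

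The members, gene lists and alternatives were chosen with earlier results of these data known. All 7 members were named, with the 3 other mitochondrial genes nearest to their sum and the 3 leading 5' positions of each member. Alternatives were the highest score, second copies dropped, distinct positions, strand ignored, other scalings, runs, assignment by the whole alignment, and members left out. Those combined with leaving out run 3, and the longer mt-Nd5, were added after seeing the data, as were the nearness without run 3 and the 3' share without mt-Nd3. Nuclear complex I subunits and the barcode list were not analysed here. Computations used Python 3.11.15, numpy 2.4.6, pandas 2.3.3, scipy 1.17.1 and matplotlib 3.10.9.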

Additional observations from a re-analysis of the deposited data

Results flagged for a closer look

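A signal was found on the strand and in the stretch that the windows of the members leave out. On the plus strand, inside mt-Nd6 but opposite to its coding strand, there were 126 mES records at 8 positions and 119 mEF records at 6 positions, where mt-Nd6 itself had none. From the end of mt-Nd6 to the base before mt-Cytb, there were 59 mES records at 9 positions and 38 mEF records at 2 positions on the plus strand. The reads of that second stretch all have a further placement on the plus strand of chromosome 4, with 5' ends from 79649821 to 79649843 in mES and to 79649823 in mEF. The level of the first stretch was 1.55-fold higher in mEF (log2 ratio of mES to mEF -0.63), and a difference in the second was not detectable at this depth (-0.08, exact interval -0.69 to 0.55). The other mitochondrial mRNAs had at most 2 records on their opposite strand.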

How the results depend on the processing

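The complex I sum was higher in mEF under all 16 settings run, with log2 ratios of mES to mEF between -1.56 and -0.67. The reported value was -0.93. It moved beyond its counting interval, always with the same direction, to -0.77 with distinct positions, -0.69 with median-of-ratios scaling (which subtracts the median of -0.23 from every locus), -0.81 without run 3, -1.56 with run 3 only, -0.75 with the highest score and without run 3, -0.67 with distinct positions and without run 3, and -0.81 without run 3 when scaled outside the mitochondrial chromosome and the locus with the most records. Leaving out a member gave values from -1.10 (mt-Nd1) to -0.80 (mt-Nd4). The sign turned for mt-Nd2 with run 3 only, at 0.13 as a bound, and for mt-Nd5 with distinct positions, at -0.10. Both have intervals that include no difference. mt-Nd1, mt-Nd3 and mt-Nd4 were higher in mEF under every setting that gave a value. With distinct positions, however, the intervals of mt-Nd1, mt-Nd2 and mt-Nd3 included no difference, and that of mt-Nd4 did not. For mt-Nd4l every setting with a value set 9 or 8 mES records against 0 from mEF, so its direction could not turn. The highest score and distinct positions gave no value for mt-Nd4l. The cause of these moves was not tested.

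The share of records with the highest score in mES moved to 83.7% with distinct positions and 68.3% with run 3 only. The share in the last 300 nt moved to 69.6% in mES and 82.1% in mEF with 200 nt, to 97.1% and 95.9% with 500 nt, and to 55.0% and 78.8% with run 3 only. Distinct positions gave 76.0% in mES and 79.5% in mEF, and leaving out mt-Nd3, added after seeing the data, 80.5% and 91.6%. With 500 nt, where mt-Nd3 is too short to count, the mES share was the higher. The intervals overlap there (96.1% to 97.9% in mES and 94.8% to 96.8% in mEF), so no order is shown. The loci past 4-fold, 1303 higher in mES and 1061 higher in mEF, became 4950 and 3598 with a minimum of 10 records, where more loci are tested. With distinct positions the minimum of 50 applies to positions instead of records. There 1 and 13 of 132 loci passed (0.758% and 9.85%), which is another set of loci. No paired analysis was possible because the pools give no value per library. Few records limit mt-Nd4l, mt-Nd5, mt-Nd6 and run 3, where the floor of 3 counts is 27.6 CPM for mES and 101 CPM for mEF. For mt-Nd5 and mt-Nd4l this is not depth alone, as their windows leave out the 3' ends of their mRNAs. With the stretch up to mt-Cytb, mt-Nd5 held 203 mES and 159 mEF records.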
